A study of Mus musculus with 8 samples.

Results

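The neurotrophins Bdnf and Ntf3 and the receptor genes Ntrk2, Ntrk3 and Ngfr were followed across sorted dopaminergic neurons of the mouse ventral midbrain at E14.5. The members were the probes whose symbol in the deposited annotated table is 1 of these 5 genes, which gave 5 of 23912 named genes and 7 of the 55681 non-control probes. Bdnf, Ntf3 and Ngfr have 1 such probe each, and Ntrk2 and Ntrk3 have 2 each, made against different transcripts. A search by RefSeq accession found 3 further probes of Ntrk2 and Ntrk3 that the table does not list, and their values are given beside those of the members. The genes were chosen with their levels in these pools known, so their values are descriptions and carry no test.

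All 8 samples were pools of Gfp-positive cells from Pitx3(Gfp/+) embryos, in which 1 allele of Pitx3, a transcription factor gene of midbrain dopaminergic neurons, carries Gfp. Rostral and caudal parts of the dissected ventral midbrain were treated with papain before cell sorting. The rostral group has 4 pools and the caudal group 4, and a pool holds 5 to 7 embryos, drawn from different litters. Each pool (Cy3) was hybridised on a 2-colour array against a common reference (Cy5), the Gfp-negative cells of the same heterozygous specimens. The reference therefore carries the same Gfp allele and mixes all other cell types of the tissue. Dyes were not swapped, so a dye effect is part of every ratio to the reference, while it is shared by the rostral and caudal pools.

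Neurotrophins are secreted proteins that keep neurons alive and shape their axons and synapses. Each binds a receptor kinase of the Trk family, BDNF the product of Ntrk2 (TrkB) and NT-3 mainly that of Ntrk3 (TrkC), and all bind p75, the product of Ngfr, a receptor of the tumour necrosis factor family. Ntrk2 and Ntrk3 each make a full-length receptor with a kinase domain and truncated forms without it, and the truncated forms of TrkB are known from glia. BDNF and NT-3 are known to support midbrain dopaminergic neurons in culture.

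The sort was checked first. Pitx3 was at log2 ratios of 3.42 to 3.73 in the 8 pools, and Th, whose product makes the dopamine precursor, at 3.21 to 3.50. All 12 listed dopaminergic markers passed the limma test as higher in Gfp-positive cells, with a median log2 ratio of 3.64. Among all 18559 genes tested against the reference, 34.6% were called higher and 36.9% lower. All 11 tested markers of radial glia and progenitors were lower, with a median of -2.95. Of 9 tested microglia and macrophage genes, 1 was higher and 1 lower, with a median of 0.20, so this list was not depleted. In the sample channel 62.5% to 70.4% of probes gave a signal well above background, in the reference channel 54.0% to 63.5%. The number of arrays limits the precision. Every probe of the 5 genes, the 3 further ones included, was well above background on all 8 arrays in both channels, and none was saturated.

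The genes lie on 5 chromosomes of the mouse genome (RefSeq, GRCm38.p6). Bdnf spans chr2:109674700-109727043, Ntf3 spans chr6:126101412-126166772, Ntrk2 spans chr13:58806472-59133970, Ntrk3 spans chr7:78179986-78581034 and Ngfr spans chr11:95568818-95587698. RefSeq promoter windows were matched for 4 of the genes, 7 starts for Bdnf, 2 for Ntf3 and 1 each for Ngfr and Ntrk2. The arrays do not tell the starts of Bdnf apart. Of these, 3 windows of 250 bases are printed, since Bdnf, Ntrk2 and Ngfr are the 3 genes with a probe whose ratios separated the rostral from the caudal pools. They run 5′ to 3′ on the strand of the gene and end at the base before the transcript start. The windows are chr2:109692186-109692435 (plus strand) for Bdnf, chr13:58806319-58806568 (plus strand) for Ntrk2 and chr11:95587699-95587948 (minus strand) for Ngfr. Capitals mark the letters found among 7 motifs searched on both strands, namely the CRE half-site CGTCA, the NBRE AAAGGTCA, the homeobox core TAATTA, the E-boxes CAGCTG and CACGTG, the GC box GGGCGG and the forkhead core TGTTTAC.
Bdnf: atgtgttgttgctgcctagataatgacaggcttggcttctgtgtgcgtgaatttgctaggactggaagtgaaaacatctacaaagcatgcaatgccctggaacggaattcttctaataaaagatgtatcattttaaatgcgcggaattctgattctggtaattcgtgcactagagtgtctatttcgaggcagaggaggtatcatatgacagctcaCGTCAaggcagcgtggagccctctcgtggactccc
Ntrk2: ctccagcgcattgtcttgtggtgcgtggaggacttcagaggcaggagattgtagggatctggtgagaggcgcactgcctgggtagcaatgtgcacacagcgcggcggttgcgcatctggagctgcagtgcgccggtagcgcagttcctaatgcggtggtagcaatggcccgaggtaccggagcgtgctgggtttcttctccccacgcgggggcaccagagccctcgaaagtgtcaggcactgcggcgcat
Ngfr: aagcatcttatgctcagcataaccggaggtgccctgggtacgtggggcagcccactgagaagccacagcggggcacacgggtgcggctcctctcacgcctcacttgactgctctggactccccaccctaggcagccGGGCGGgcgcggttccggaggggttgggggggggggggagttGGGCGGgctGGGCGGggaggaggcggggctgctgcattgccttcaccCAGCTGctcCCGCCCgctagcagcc

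The window of Bdnf, chosen among its 7 because it holds the CRE half-site, has CGTCA starting 35 bases before the transcript start. The other Bdnf windows did not hold that motif. CGTCA was found in 17.8% of all 32851 windows. This is a share of single windows, while 7 were searched for Bdnf, so nothing is read from the match. The Ngfr window holds 4 GC boxes and a CAGCTG that starts 25 bases before the start, and 70.4% of its bases are G or C. GGGCGG was found in 32.7% and CAGCTG in 13.0% of all windows. None of the 7 motifs was found in the Ntrk2 window, which is 62.8% G or C. The 3 printed windows share no motif of the search, which follows from the empty Ntrk2 window and from the Bdnf start that was printed. Other Bdnf starts held GGGCGG or CAGCTG, which the Ngfr window holds too. GGGCGG was also present at each start of Ntf3. CACGTG, found in 6.02% of all windows, was present at 1 start of Ntf3. AAAGGTCA, TAATTA and TGTTTAC, found in 1.34%, 4.84% and 3.17% of all windows, were in none of the 11 windows. A match is a run of letters and was not tested as a binding site.

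Across the 8 pools, both ligands were far above the reference, and the receptor kinase genes gave values that differed between their probes. Ngfr was below the reference in rostral pools and near it in caudal pools. Between the parts, Bdnf and 1 of the 3 probes of Ntrk2 were higher in rostral pools and Ngfr was higher in caudal pools. The ratios of these 3 probes did not overlap between the parts, while those of the other two Ntrk2 probes, the brightest of the gene among them, did. For comparison, 12.5% of the 18099 genes tested between the parts had ratios that did not overlap (6.45% with the rostral pools higher, 6.06% with the caudal pools higher). The genes were chosen on this contrast, so nothing is read from the count. Levels in bulk pools do not tell fewer cells of a type from less RNA per cell.

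**Figure D1:**
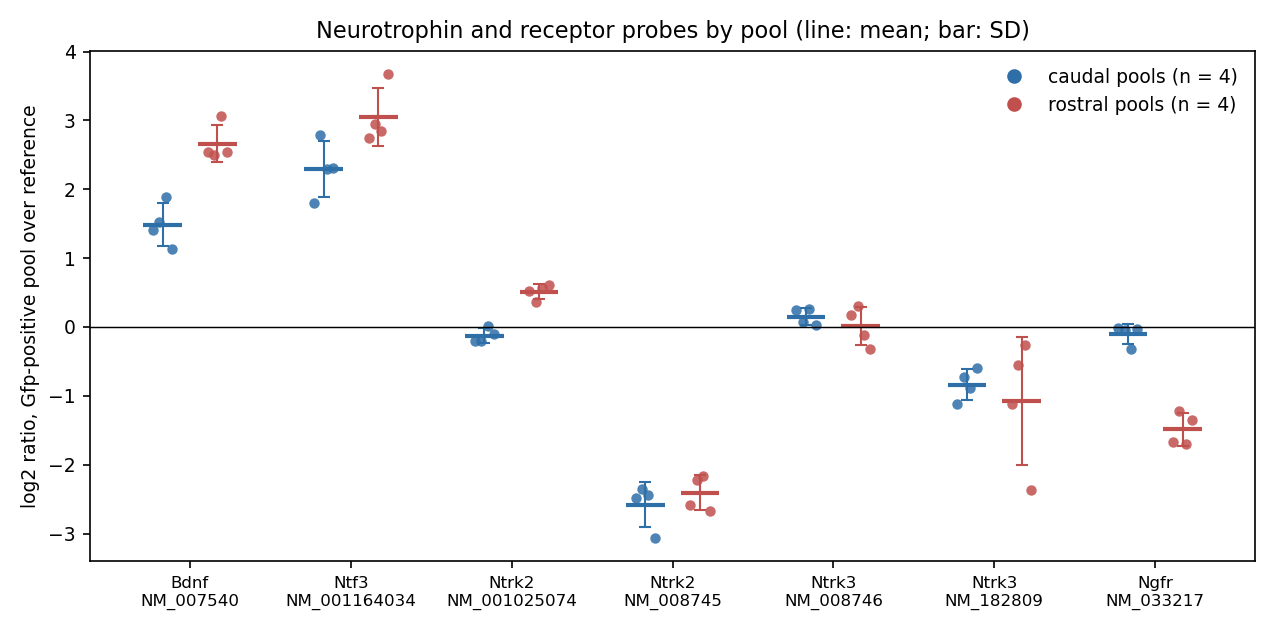
Log2 ratio of sorted cells over the Gfp-negative reference for the 7 probes of the 5 genes in each rostral and caudal pool, with the group mean and SD. Bdnf and the table's Ntrk2 probe of NM_001025074 lie higher in rostral pools, Ngfr lies higher in caudal pools, and the Ntrk3 probes overlap. The brightest Ntrk2 probe, annotated to the same transcript, is not shown here and overlaps between the parts.

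Bdnf encodes brain-derived neurotrophic factor, the main ligand of TrkB. Its probe lists 4 RefSeq transcripts, among them NM_007540. The log2 ratio to the reference was 2.54, 2.50, 3.06 and 2.54 in rostral pools 1 to 4. In caudal pools 1 to 4 it was 1.41, 1.53, 1.89 and 1.13. Every pool stood above the reference, and the lowest rostral pool stood above the highest caudal pool. The means were 2.66 ± 0.27 (SD, n = 4) and 1.49 ± 0.31 (SD, n = 4), a difference of 1.17 (SE 0.18), or 2.25-fold higher in rostral pools. Over all 8 pools the mean ratio was 2.07 (SE 0.09), or 4.21-fold above the reference. For all genes tested between the parts, the median absolute difference was 0.13, and the 5th and 95th percentiles were -0.47 and 0.54.

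The separate channels put the difference in Bdnf in the sorted cells. In the sample channel the log2 level was 13.38 ± 0.35 (SD, n = 4) in rostral pools, from 13.13 to 13.89. In caudal pools it was 12.15 ± 0.38 (SD, n = 4), from 11.74 to 12.64. The reference channel, which holds the same RNA on every array, was 10.72 ± 0.10 beside rostral and 10.66 ± 0.07 beside caudal pools (SD, n = 4 each). Among all genes tested, the sample channel did not overlap between the parts for 12.5% and the reference channel for 2.14%.

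Ntf3 encodes neurotrophin-3, the main ligand of TrkC. Its probe lists 3 RefSeq transcripts, among them NM_001164034. In rostral pools 1 to 4 the log2 ratio was 2.75, 2.95, 2.84 and 3.67, and in caudal pools 1 to 4 it was 1.80, 2.79, 2.30 and 2.31. Rostral pool 4 was the highest, and the parts overlapped, since caudal pool 2 stood above rostral pool 1. The means were 3.05 ± 0.42 and 2.30 ± 0.40 (SD, n = 4 each), a difference of 0.76 (SE 0.25). Over 8 pools Ntf3 was 6.39-fold above the reference (2.68, SE 0.12), and all 8 ratios were above 0. Bdnf had 8 positive ratios too. Among the genes tested against the reference, 24.4% had 8 ratios above 0 and 52.4% had 8 ratios of 1 sign.

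The sample channel of Ntf3 ran from 11.52 to 12.46 in rostral and from 10.33 to 11.28 in caudal pools, on the log2 scale. By that channel alone the parts did not overlap. Its reference channel was 8.79 ± 0.05 beside rostral and 8.61 ± 0.18 beside caudal pools (SD, n = 4 each).

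**Figure D2:**
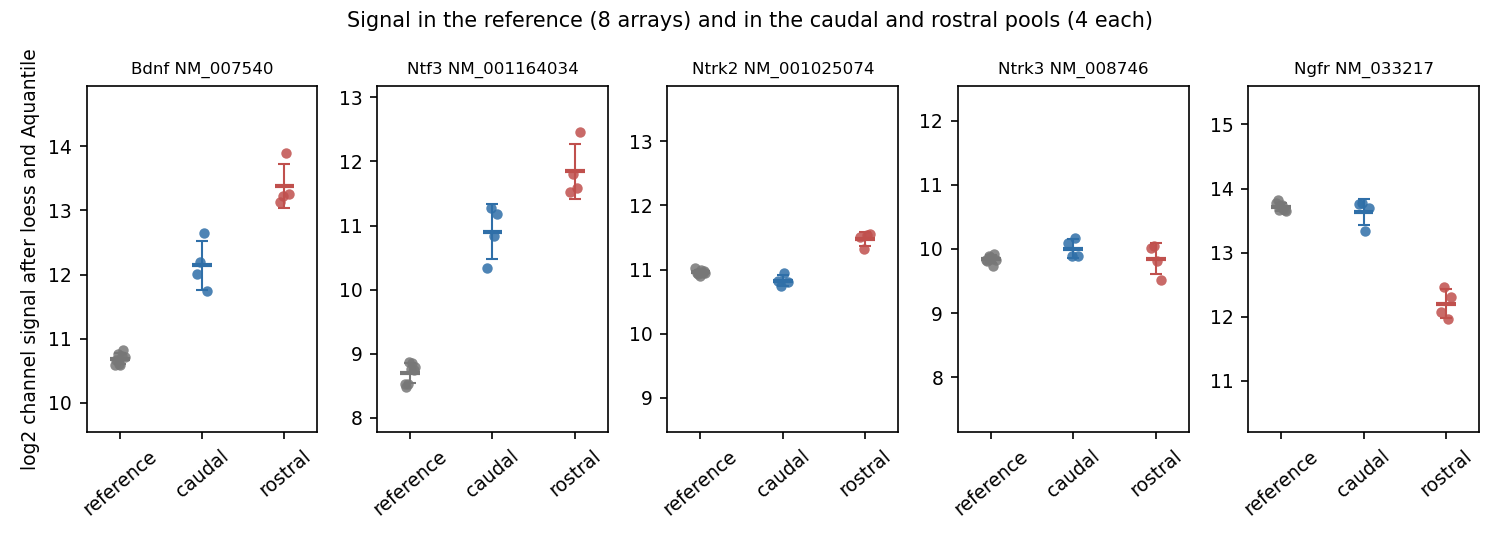
Log2 level of the sample channel and of the reference channel, after loess and Aquantile normalization, for 1 probe of each of the 5 genes, with the mean and SD of the 8 reference measurements and of the 4 pools of each part. The reference channel differs by at most 0.18 between the means of the 2 parts. The sample channel of Bdnf, Ntf3, the table's Ntrk2 probe of NM_001025074 and Ngfr is separate between them. Among all genes tested, the sample channel did not overlap for 12.5%. The log2 ratios of Ntf3 do overlap between the parts.

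Ntrk2 encodes TrkB. NM_001025074 is the full-length variant with the kinase domain and NM_008745 a truncated variant. The table's probe of NM_001025074, spotted 10 times on each array, had log2 ratios of 0.52, 0.37, 0.57 and 0.61 in rostral pools 1 to 4. In caudal pools 1 to 4 they were -0.21, -0.21, 0.01 and -0.10. Rostral pools stood above the reference and caudal pools at or just below it, without overlap. The means were 0.51 ± 0.11 and -0.13 ± 0.11 (SD, n = 4 each), a difference of 0.64 (SE 0.10), or 1.56-fold higher in rostral pools. The SD between the 10 spots of an array was 0.07 to 0.13. It describes single spots, while the value of an array is the mean of its spots, so it is not comparable with the SD between pools. Its sample channel was 11.48 ± 0.11 in rostral and 10.82 ± 0.09 in caudal pools, and its reference channel 10.96 ± 0.02 and 10.95 ± 0.05 (SD, n = 4 each).

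The probe of the truncated variant gave another picture. Its log2 ratios were -2.58, -2.22, -2.16 and -2.67 in rostral pools 1 to 4 and -2.49, -2.35, -2.43 and -3.07 in caudal pools 1 to 4. All 8 pools were far below the reference, 5.64-fold on average (-2.50, SE 0.09), and the parts overlapped, with a difference of 0.18 (SE 0.19). Within each array, the ratio of the NM_001025074 probe exceeded that of the NM_008745 probe by 2.15 to 3.27, with a mean of 2.69 (SD 0.40, n = 8). Of genes tested against the reference, 28.0% had all 8 ratios below 0.

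The further probe of Ntrk2, not listed in the table, is annotated to NM_001025074 too and was the brightest of the gene. Its log2 ratios were -1.81, -2.01, -2.13 and -1.99 in rostral pools 1 to 4 and -2.12, -2.06, -2.16 and -2.62 in caudal pools 1 to 4. It was thus 4.33-fold below the reference (-2.11, SE 0.06), near the probe of the truncated variant, and its rostral and caudal pools overlapped with a difference of 0.26 (SE 0.13). Probes annotated to the same transcript therefore disagreed, both on the level against the reference and on the size of the difference between the parts. The mean of the gene's 3 probes gave a difference of 0.36 between the parts and a ratio of -1.47 to the reference. The probe sequences were not used here, so which exons each probe covers was not tested.

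Ntrk3 encodes TrkC. NM_008746 is a full-length variant and NM_182809 a truncated one. The NM_008746 probe of the table had log2 ratios of 0.18, 0.31, -0.11 and -0.32 in rostral pools 1 to 4 and of 0.25, 0.07, 0.27 and 0.02 in caudal pools 1 to 4. The pools lay around the reference, 6 of 8 above it, and the parts overlapped, with a difference of -0.14 (SE 0.16). A further probe of the same transcript lay at 0.25 to 0.42 in rostral and 0.23 to 0.49 in caudal pools, a mean of 0.36 (SE 0.04), or 1.28-fold above the reference.

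The NM_182809 probe of Ntrk3 had log2 ratios of -1.12, -0.55, -0.26 and -2.36 in rostral pools 1 to 4. In caudal pools 1 to 4 they were -1.12, -0.73, -0.89 and -0.60. All 8 pools were below the reference (-0.95, SE 0.19, or 1.94-fold lower), and rostral pool 4 was far below the rest. Its sample channel was 8.98 in that pool, against 10.13 to 11.24 in the other 7. The difference between the parts was -0.24 (SE 0.39), and without rostral pool 4 it was 0.19. The further probe of the transcript gave -1.14 in rostral pool 4 and -1.04 to -0.44 in the others, a mean of -0.76 (SE 0.09), or 1.70-fold below the reference. For both of its transcripts, then, the 2 probes of Ntrk3 lay on the same side of the reference on average. The NM_008746 probe of the table was close to the reference, however, with a mean of 0.08 (SE 0.08). Within each array the NM_008746 probe of the table exceeded the NM_182809 probe by 0.15 to 2.05 (mean 1.04, SD 0.57, n = 8).

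**Figure D3:**
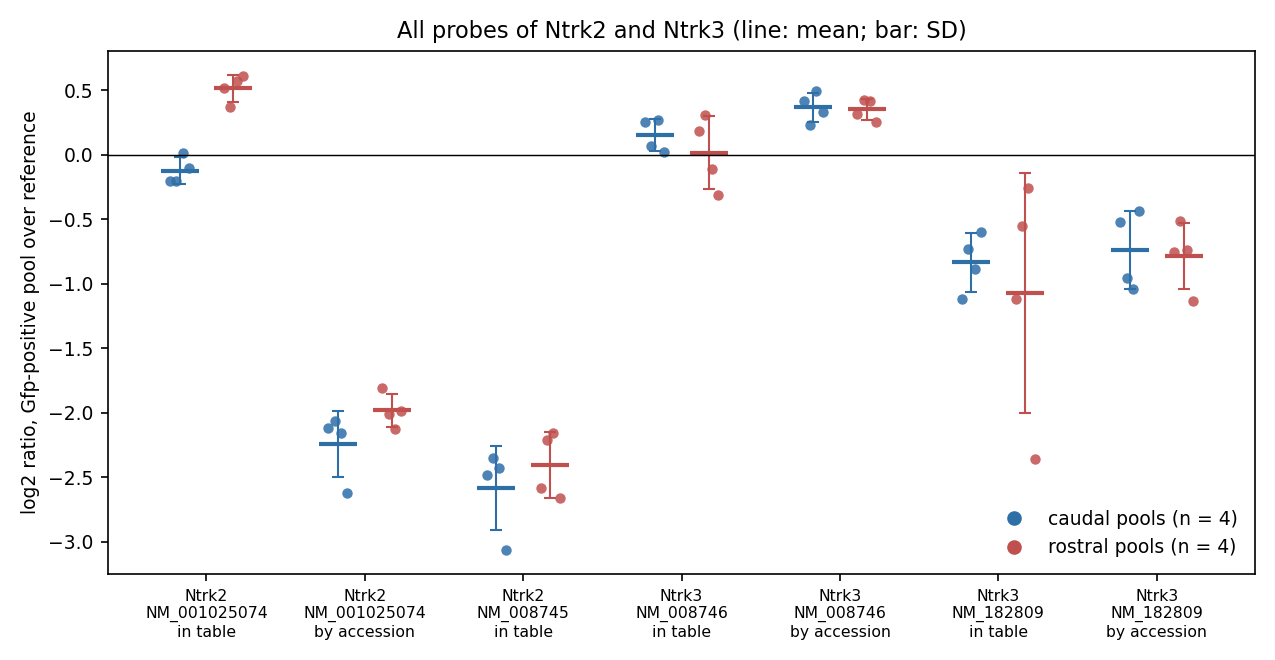
Log2 ratio to the reference for each of the 7 probes of Ntrk2 and Ntrk3 in each pool, by annotated transcript, with the group means. The 2 probes of NM_001025074 lie apart, at means of 0.19 and -2.11, while for each Ntrk3 transcript the means of the 2 probes lie closer together. Single pools can differ, as in rostral pool 4, where the NM_182809 probes are at -2.36 and -1.14.

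Ngfr encodes p75, which binds every neurotrophin and their precursors. Its probe of NM_033217 was spotted 10 times on each array. The log2 ratio to the reference was -1.67, -1.22, -1.70 and -1.35 in rostral pools 1 to 4. In caudal pools 1 to 4 it was -0.02, -0.05, -0.32 and -0.03. Caudal pools stood near the reference and rostral pools well below it, without overlap. The means were -1.48 ± 0.24 and -0.11 ± 0.14 (SD, n = 4 each), a difference of -1.38 (SE 0.13), or 2.60-fold higher in caudal pools. In the sample channel the log2 level was 12.20 ± 0.23 in rostral and 13.64 ± 0.20 in caudal pools, while the reference channel was 13.69 ± 0.04 and 13.74 ± 0.06 (SD, n = 4 each). The SD between spots of an array was 0.05 to 0.14.

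The arrays lay on 1 slide in 2 rows, replicates 1 and 2 of both parts in the first and replicates 3 and 4 in the second. The differences between the parts were computed within each row. Bdnf differed by 1.05 in the first row and 1.29 in the second, and Ngfr by -1.41 and -1.35. The table's Ntrk2 probe of NM_001025074 differed by 0.65 and 0.63, and Ntf3 by 0.56 and 0.96. These 4 differences had the same sign in both rows. The further Ntrk2 probe of the same transcript was not compared by row. For Ntrk3 the sign turned, from 0.08 to -0.36 for NM_008746 and from 0.09 to -0.57 for NM_182809.

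The ratios of the members were set against each other over the 8 arrays, which share the reference, the slide and the split into parts. For Ntrk2 the table's probe of NM_001025074 was used. Bdnf and Ntrk2 had a Pearson r of 0.93, Bdnf and Ngfr -0.96, and Ngfr and Ntrk2 -0.97. Ntf3 was at 0.65 with Bdnf and 0.74 with Ntrk2, and Ntrk3 (NM_182809) was between -0.47 and 0.13 with the others. The pools fall into the 2 parts, so for Bdnf, Ntrk2 and Ngfr these values restate the separation of the parts.

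By the same measure, the 3 genes most like each member among all genes tested were listed. They were picked by r, and for Bdnf, Ntrk2 and Ngfr a high r again restates the separation of the parts. For Bdnf they were Wnt7b, a Wnt ligand (r = 0.985, 1.40 higher in rostral pools on the log2 scale), Gria1, a glutamate receptor subunit (r = 0.982, 1.33 higher), and Gm3893 (r = 0.982). For the Ntrk2 probe they were Fezf2, a forebrain transcription factor gene (r = 0.991, 1.26 higher in rostral pools), Epha3, an ephrin receptor gene (r = 0.991, 1.84 higher), and Ppp2r2b (r = 0.982). For Ngfr they were Tal2, a transcription factor gene of midbrain GABAergic neurons (r = 0.996), Cthrc1 (r = 0.990) and Ston2 (r = 0.988), with differences of -1.79, -1.33 and -1.32. Mean log2 ratios to the reference were -0.12, -0.56 and 0.09 for the 3 genes listed with Bdnf, in the order above. They were -2.26, -0.94 and -0.10 for those listed with Ntrk2, and -4.92, 1.39 and 1.51 for those listed with Ngfr. Ntf3 was most like B4galt4 (r = 0.983), C030034I22Rik (r = 0.965) and Smoc1 (r = 0.956). Ntrk3 (NM_182809) was most like 6330412A17Rik (r = 0.971), Tenm1 (r = 0.941) and 4930432F04Rik (r = 0.940). These last values lean on rostral pool 4, where this Ntrk3 probe was at -2.36, against -1.12 to -0.26 in the other pools. The further probe of the transcript gave -1.14 in that pool.

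Markers of other cell types were read beside these differences. Among all 18099 genes tested between the parts, 6.33% were called. Of 7 tested genes of the hypothalamic and rostral list, 4 passed the test as higher in rostral pools and none as higher in caudal pools. The summed sample signal of the whole list was 5840 to 9569 in rostral and 2733 to 4942 in caudal pools. Such sums, here and below, cover every listed gene with a probe, tested or not. For Otp and Barhl2, no array gave a signal well above background. Of 10 GABAergic genes, 3 were higher in rostral and 2 in caudal pools, with summed signals of 154501 to 251778 and 110835 to 169555. Radial glia and progenitor genes summed to 55218 to 67937 and 66721 to 76665, with 1 of 11 called, higher in caudal pools.

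Of 8 tested glutamatergic and red nucleus genes, 1 was higher in rostral and 2 in caudal pools, with differences from -2.78 to 1.84 and sums of 35474 to 50669 in rostral and 41822 to 46035 in caudal pools. Motor and oculomotor genes had 1 of 7 higher in each part, with sums of 4848 to 5912 and 3663 to 6420. Of 3 serotonergic genes, 1 was higher in caudal pools (sums 1089 to 1364 and 1370 to 2031), and of 9 microglia and macrophage genes, 1 was higher in rostral pools (sums 45466 to 153452 and 40557 to 142227). Among the 12 dopaminergic markers themselves, 1 was higher in rostral and 3 in caudal pools, and the sums overlapped, at 1594997 to 1778042 and 1610077 to 1783878. Pan-neuronal genes had 2 of 10 higher in rostral pools and 1 in caudal pools. In the oligodendrocyte precursor, endothelial and erythroid lists limma called 0 of 6, 0 of 6 and 0 of 5 genes (1, 1 and 0 at an unadjusted p below 0.05).

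Pericyte and mesenchyme genes summed to 3722 to 21676 in rostral and 2535 to 3945 in caudal pools, with 0 of 8 called by limma (1 at an unadjusted p below 0.05). For neural crest glia and Schwann cells, a known site of Ngfr, the sums were 20562 to 25274 and 19415 to 21942, and limma called 0 of 7 genes (0 at an unadjusted p below 0.05). Of the sensory neuron list, 4 of 9 genes could be tested and 1 was called, higher in rostral pools, and for Avil, Scn10a and Tlx3 no array gave a signal well above background. Its sums were 5969 to 7610 in rostral and 5925 to 8066 in caudal pools. The part of these cell types in the differences of Bdnf, Ntrk2 and Ngfr was not tested.

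The other genes of neurotrophin signalling were taken from 6 lists of 124 genes, of which 115 could be tested between the parts. Of these 115, 7 passed the limma test at an adjusted p below 0.05 as higher in rostral and 3 as higher in caudal pools, or 8.70%. Among all 18099 genes tested, 6.33% were called (3.53% higher in rostral, 2.80% higher in caudal pools). The median difference was -0.00 for the 115 genes and 0.01 for all genes. The count fell to 4 without caudal pool 1, 3 or 4, to 5 without rostral pool 3, and to 6 without caudal pool 2 or rostral pool 2 or 4. In the first slide row alone, limma called 0 of these genes (17 at an unadjusted p below 0.05), and in the second 5.

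**Figure D4:**
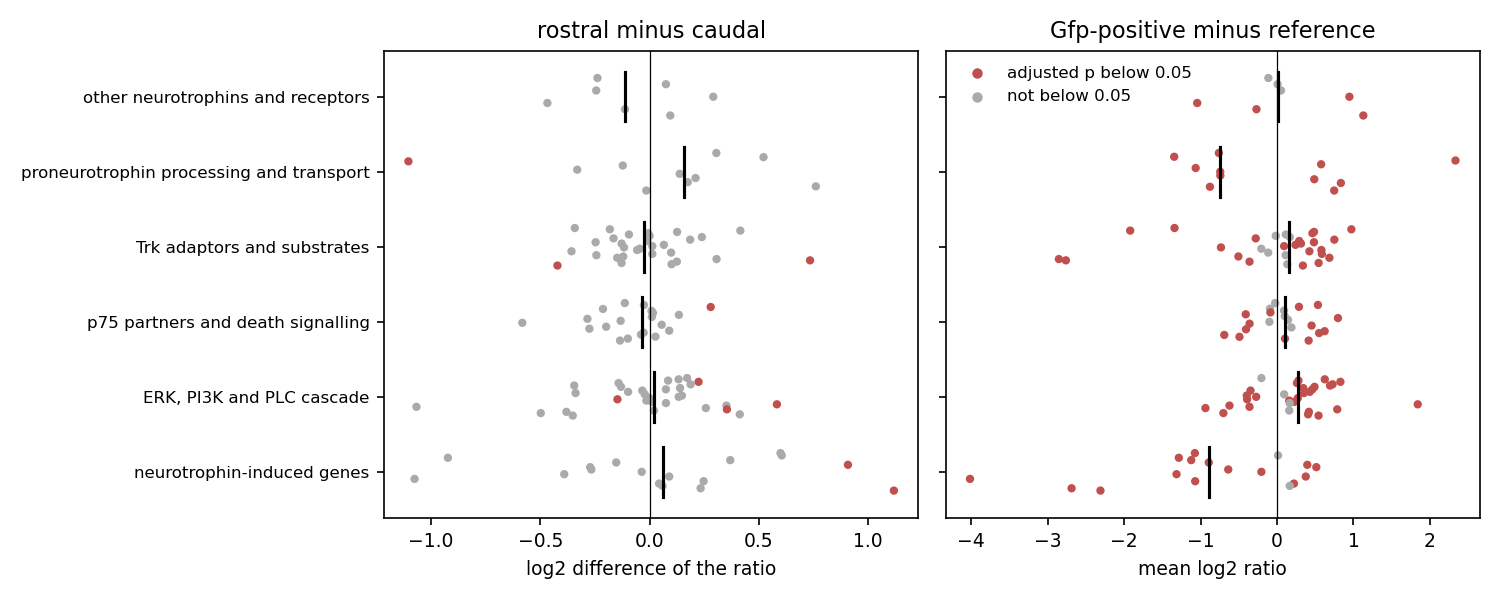
Log2 difference between rostral and caudal pools (left) and mean log2 ratio to the reference (right) for each tested gene of the 6 neurotrophin signalling lists, with genes that passed the limma test in red and the list median as a bar. On the left the called genes farthest from 0 are Etv5 at 1.12 and Pcsk6 at -1.10, and on the right Npy lies farthest out at -4.02.

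Of the 7 tested genes among the other neurotrophins and receptors, limma called 0 between the parts (1 at an unadjusted p below 0.05). Sort1, the sortilin co-receptor of p75 for proneurotrophins, had a difference of -0.24 (limma adjusted p = 0.0825). Ntf5, which encodes neurotrophin-4, exceeded background clearly in 3 rostral pools and 1 caudal pool.

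Among genes of proneurotrophin processing and transport, 1 of 10 was called. Pcsk6, a proprotein convertase gene, was lower in rostral pools by a log2 difference of -1.10 (SE 0.16, limma adjusted p = 0.00485). Its ratios were 1.78 ± 0.36 in rostral and 2.89 ± 0.07 in caudal pools (SD, n = 4 each), without overlap. Among 17 tested neurotrophin-induced genes, 2 were higher in rostral pools. Etv5, an ETS transcription factor gene, differed by 1.12 (SE 0.14, limma adjusted p = 0.00265), and Vgf, a secreted neuropeptide precursor gene, by 0.91 (SE 0.23, limma adjusted p = 0.0468), with overlapping pools. Pcsk6 and Etv5 stayed called in 17 of 18 alternatives each, and Vgf in 5 of 18.

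Of 31 genes of the ERK, PI3K and PLC cascade, 3 were higher in rostral pools and 1 was lower. Prkca, a protein kinase C gene, differed by 0.58 (limma adjusted p = 0.0166; 0.35 by its other probe), Camk2b, a calmodulin kinase subunit gene, by 0.35 (limma adjusted p = 0.00931; 0.09 by its other probe), and Rap1b, a small GTPase gene, by 0.22 (limma adjusted p = 0.0423). Akt1 had -0.15 (limma adjusted p = 0.0469). Prkca and Camk2b stayed called in 15 of 18 alternatives, Rap1b in 5 and Akt1 in 3.

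Of 30 Trk adaptors and substrates, Islr2, a Trk-binding membrane protein gene, was higher in rostral pools by 0.73 (limma adjusted p = 0.0264). Nedd4l, a ubiquitin ligase gene, was lower by a log2 difference of -0.42 (limma adjusted p = 0.0342), but its other probe gave -0.04. Of 20 p75 partners and death signalling genes, Bex1 was higher in rostral pools by 0.28 (limma adjusted p = 0.0349), and its other probe gave -0.04. Islr2 stayed called in 10 of 18 alternatives, Nedd4l in 9 and Bex1 in 6.

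Against the Gfp-negative reference, 117 of the 124 genes were tested. As 53 were higher and 41 lower in Gfp-positive cells, 80.3% were called, beside 71.5% of the 18559 genes tested in all (34.6% higher and 36.9% lower). Median centring of the arrays in place of loess raised the share of higher among all called genes from 48.4% to 61.5% and moved the median of all genes by 0.13. The signalling lists then had 65 higher and 33 lower genes, and with the processed signals of Feature Extraction 62 and 33. The reference is 1 control RNA hybridised on every array, so its own spread is left out of these tests.

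Of the sortilin family, Sorcs3 was higher in Gfp-positive cells by 1.13 (limma adjusted p = 3.4e-08) and Sorl1 by 0.95 (limma adjusted p = 3.2e-06; 0.44 by its other probe). Sorcs1 was lower, at -1.04 (limma adjusted p = 7.5e-05), while its other probe gave -0.23. Sorcs2 was at -0.27 (limma adjusted p = 0.00356; -0.04 by its other probe), and its sign turned to 0.10 under median centring. Pcsk6 stood 5.04-fold above the reference (2.33, limma adjusted p = 5.1e-09). Cpe, the carboxypeptidase that sorts BDNF precursors, was at -0.74 (limma adjusted p = 5.1e-10), while its other 2 probes gave -0.99 and 0.58. Serpini1 was at 0.75 and Hap1, which binds proBDNF, at 0.49, with -0.08 and -0.15 by their other probes.

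Among Trk adaptors, Lrig1, a known brake on receptor kinases, was at -2.85 (limma adjusted p = 7.2e-10; -2.34 by its other probe), Islr2 at -2.76 (limma adjusted p = 1.7e-09) and Shc1 at -1.34 (limma adjusted p = 4.2e-08), all lower in Gfp-positive cells. Irs1 was higher, at 0.59 (limma adjusted p = 3.2e-07). In the cascade list, 19 of 31 genes were higher and 8 lower (median 0.27). Under median centring 21 were higher and 4 lower, and with the processed signals 21 and 5. Prkca was at 1.84 (0.61 by its other probe), Rap1b at 0.83 and Camk2b at 0.79 (1.07 by its other probe). Akt1 was at -0.39, and at 0.00 with the processed signals of Feature Extraction.

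Among the p75 partners and death signalling genes, 8 of 21 were higher and 6 lower, against 13 and 5 with the processed signals and 11 and 4 under median centring. Mapk9, which encodes a JNK kinase, was at 0.55 (0.41 by its other probe) and Bax, a cell death gene, at 0.41. Tnfrsf19, a relative of p75 that partners the Nogo receptor, was at 0.80, and its other probe gave -0.01. Mapk10 was at -0.69, with -0.04 by its other probe. Of 17 tested neurotrophin-induced genes, 4 were higher and 11 lower (median -0.89). Npy, a neuropeptide gene, was lowest of the named ones at -4.02 (limma adjusted p = 7.1e-09), followed by the ETS genes Etv4 at -2.69 (limma adjusted p = 2.0e-10; -1.93 by its other probe) and Etv5 at -2.31 (limma adjusted p = 2.5e-09) and by Nptx2, a synaptic pentraxin gene, at -1.31 (limma adjusted p = 4.7e-06). Etv5 was thus below the reference in pools of both parts, at -1.75 ± 0.31 in rostral and -2.87 ± 0.15 in caudal pools (SD, n = 4 each).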

How the data were processed

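Gene expression was measured in 8 pools on 2-colour Agilent arrays. The scanner files hold raw median spot intensities of both channels, made by the authors with Feature Extraction 10.7.3.1 and not normalized, per the file headers. Processed intensities in the deposited files were background-subtracted and dye-normalized, per the file headers. The submitters' processing notes also list RMA, without a role. A deposited table supplied probe symbols, and its 8 columns of values match no sample label and were not used.

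In R 4.3.3 with limma 3.58.1, background was corrected by normexp (offset 50) and each array normalized by loess, giving no weight to control and outlier spots. Log2 ratios are sample over reference. Single channels were also Aquantile normalized. The brightest probe stood for a gene in tests over all genes. Genes were tested if well above background on at least 4 of 8 arrays, in the sample channel between the parts and in either channel against the reference, with lmFit, eBayes with an intensity trend and Benjamini-Hochberg adjustment, 2-sided. The procedure was tested on simulated data. Named were the 5 genes, up to 4 called genes with the smallest p per list and comparison, and the 3 genes most like the brightest table probe of each member. Members and lists were chosen with earlier results of these data known. The labels call the pools biological replicates, and a p-value covers only the spread seen among them. Alternatives covered the background, the normalization, the filter on dim probes, the choice of probe, the replicate number, the slide row and each pool left out. Values of some listed genes are not reported here.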

Additional observations from a re-analysis of the deposited data

Results flagged for a closer look

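Of 14 groups of 4 pools, 1 for each part and each of the 7 probes, 2 had a pool far from the other 3 by Dixon's gap ratio, which is the gap to the nearest pool over the range of the group. By chance this marks about 1 in 20 groups. For Bdnf in rostral pools the ratio was 0.923, as pool 3 stood at 3.06 above the others at 2.50 to 2.54. For Ngfr in caudal pools it was 0.917, as pool 3 stood at -0.32 below the others at -0.05 to -0.02. Without these pools, the differences between the parts were 1.04 for Bdnf and -1.45 for Ngfr.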

How the results depend on the processing

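The differences of Bdnf, Ngfr, Ntf3 and both Ntrk2 probes of the table between the parts kept their sign in all 19 alternatives, and those of Ntrk3 in 18 (NM_008746) and 17 (NM_182809). That of Ntrk2 (NM_008745) was no larger than its SE, at 0.18 (SE 0.19), and fell to 0.02 at the lowest. Leaving out each pool in turn gave 1.04 to 1.31 for Bdnf, -1.47 to -1.31 for Ngfr, 0.55 to 0.92 for Ntf3, 0.61 to 0.69 for Ntrk2 (NM_001025074) and -0.51 to 0.19 for Ntrk3 (NM_182809). The mean of all probes of Ntrk2 gave 0.36 between the parts and a reversed ratio of -1.47 to the reference, its probes differing in sign. For Ntrk3 the mean of all probes gave -0.32 to the reference. The ratio of its NM_008746 probe, 0.08, kept its sign in 16 of 18 alternatives. Against the reference, median centring gave 2.43 for Bdnf, -0.51 for Ngfr and 0.56 for Ntrk2, and the processed signals gave 3.17 for Ntf3 and 0.33 for Ntrk2. For Sorcs2 median centring gave 0.0956, and for Akt1 the processed signals gave 0.0018. Between the parts, 1145 genes were called, 724 to 1012 with a pool left out (724 without caudal pool 1, 756 without caudal pool 4). With the slide row as a block 1021 were called, in the first row alone 0 (2440 at an unadjusted p below 0.05) and in the second 185. Of the signalling lists, 10 genes were called, 4 to 10 with a pool left out, 5 under median centring, 7 with the slide row as a block, 0 in the first row and 5 in the second. The replicate block called 724 genes, and 5 of the lists. The numbers do not pair the pools: correlations of same-numbered pools' deviations were -0.07 to 0.02, and 0 of 8 pools correlated best with their own number. The causes of these changes were not tested. Signal over background limits Ntf5, which was well above background in 3 rostral pools and 1 caudal pool.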
